A study of Rattus norvegicus with 12 samples.

Results

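Heat shock proteins and their partner chaperones made up 71 of the 10412 named genes on the array, and were read from 91 of its 15923 probe sets. A probe set was a member where its only gene symbol in the array annotation was Cryab, Hsf1, Hsf2, St13, Stip1 or Hyou1, or began with Hspa, Hspb, Hspd, Hspe, Hsph, Hsp90, Dnaj, Bag and a digit, or Cct and a digit. After a filter on low signal, 71 member probe sets of 58 genes stood among the 9520 probe sets tested. Another 4 probe sets carried a member's symbol beside a further symbol, and among them were those of Hsp90aa1, Hspa8 and Hspa1b, so these 3 genes have no value here. The rule uses gene symbols only, and no measured value.

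The RNA came from the hippocampus of rats given KA or phosphate-buffered saline (PBS) at postnatal day 20, and the study asked about seizures and enriched housing. The labels give KA without its full name, and it is read as kainic acid, which induces seizures through glutamate receptors. The 4 groups were PBS_isolated (PBS, then 10 days alone in individual cages), KA_isolated (KA, then the same 10 days alone), PBS_enriched (PBS, then large enriched cages with groups of 8 rats) and KA_enriched (KA, then the same enriched cages). For the enriched groups the labels give no duration, and no group lived in ordinary cages. Each group had 3 samples, all of them pools of hippocampi from 3 to 4 rats, and n is the number of pools. Litter and cage are not given, so p-values measure the spread between pools only.

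Heat shock proteins are chaperones, which bind unfolded proteins and help them fold, refold or be degraded. HSP70 proteins hold a client through cycles of ATP binding and hydrolysis, J proteins (Dnaj) bring the client and start hydrolysis, and nucleotide exchange factors such as the Bag and HSP110 proteins end the cycle. HSP90 takes over clients near their folded state, the CCT and mitochondrial chaperonins fold proteins inside a closed chamber, and small heat shock proteins hold unfolded proteins without ATP. Under heat or damaged protein, heat shock factor 1 (Hsf1) binds heat shock elements in promoters and raises transcription of many of these genes. In brain, Hspb1 is known as a protein that astrocytes and some neurons make after seizures or ischaemia.

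The sites that these factors read are shown first, because the heat shock and endoplasmic reticulum (ER) stress responses act through them. In RefSeq promoters (GRCr8, 250 bases before to 50 bases after the start), 58 of the 71 genes had a sequence. The 2-unit heat shock element, GAANNTTC or TTCNNGAA, was searched on both strands and found in 16 of the 58 (27.6%), against 15.9% of the 33469 promoters in the table. The 3-unit form overlaps the 2-unit form and stood in 5 of the 58 (8.62%), namely Cct4, Dnaja1, Hspd1, Hspe1 and Hsph1, against 0.798% of all promoters. The ER stress element, CCAAT and CCACG with 9 bases between them on either strand, stood in 3 of the 58 (5.17%), namely Dnajc3, Hsp90b1 and Hspa5, against 0.0657%. A match is a description of letters and no proof of a site.

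These stretches are printed 5′ to 3′ on the strand of the gene, with heat shock elements in capitals for the first 4 and the ER stress element in capitals for Hspa5. Hspb1 is shown because its signal differed most between the isolated groups, Hspe1 and Hspd1 because they share a promoter, Hsph1 because it has the 3-unit form, and Hspa5 as the main ER stress target. They lie at chr12:26432383-26432450 (minus strand, Hspb1), chr9:64084242-64084299 (plus strand, Hspe1), chr9:64084242-64084287 (minus strand, Hspd1), chr12:10427243-10427364 (plus strand, Hsph1) and chr3:38452953-38453011 (plus strand, Hspa5).
Hspb1: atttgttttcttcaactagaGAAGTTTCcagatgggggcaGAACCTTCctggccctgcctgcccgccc
Hspe1: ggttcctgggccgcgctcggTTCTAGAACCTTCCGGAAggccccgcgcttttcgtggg
Hspd1: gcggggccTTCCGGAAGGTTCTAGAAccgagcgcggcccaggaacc
Hsph1: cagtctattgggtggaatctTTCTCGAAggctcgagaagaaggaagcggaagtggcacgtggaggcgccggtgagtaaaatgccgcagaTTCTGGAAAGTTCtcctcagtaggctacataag
Hspa5: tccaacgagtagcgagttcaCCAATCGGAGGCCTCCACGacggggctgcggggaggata
Hspe1 and Hspd1 are read in opposite directions from the same stretch, so their capitals are the same DNA on opposite strands. In Hspb1 both elements have the 2-unit form.

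The arrays were alike in scale, with median signals from 70.06 to 74.1, and arrays of the same group correlated at 0.9808 to 0.9894. Arrays of different groups correlated as closely, at 0.9818 to 0.9905. Replicate 3 of KA_enriched stood apart, with the lowest mean correlation with the other arrays (0.983) and the highest log2 ratio of 3′ to 5′ beta-actin signal (0.86, against 0.36 to 0.64 elsewhere), a sign of RNA quality. Marker genes of hippocampal neurons were well measured in every pool, with a summed signal over 7 genes of 8698 to 9811. The summed signal of 15 microglial and macrophage markers was 1217 to 1312 in PBS_isolated, 1829 to 2246 for KA_isolated, 1254 to 2001 for PBS_enriched and 1135 to 1931 in KA_enriched. Some of these markers were dim, with lowest single signals of 11.2, 21.6, 13.8 and 7.97 in the same order, and 12 of the 15 passed the signal filter. Choroid plexus markers were uneven. Their summed signal over 7 genes was 236.8 to 2967 in PBS_isolated, 229.3 to 562.7 for KA_isolated, 249.1 to 296.2 for PBS_enriched and 295.7 to 876.8 in KA_enriched. The list level of the 2 that passed the filter was highest in PBS_isolated replicate 1 (1.927) and KA_enriched replicate 2 (0.901). The part of this tissue in the members' values was not tested. In a pool of tissue, fewer cells of a type and less RNA per cell cannot be told apart.

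No heat shock protein or chaperone passed the threshold in any comparison. With limma and Benjamini-Hochberg adjustment over all 9520 probe sets, 0 of the 71 member probe sets had an adjusted p under 0.05 for KA against PBS in isolated rats (background 0.0105%) or in enriched rats (background 0%). The same count of 0 held for enriched against isolated housing after PBS (background 0.0105%) and after KA (background 0%), and for the interaction, the KA difference under enrichment minus the KA difference under isolation (background 0%). It also held for the mean KA effect (background 0.0105%), the mean housing effect (background 0.021%) and any difference among the 4 groups (background 0.0105%). The background is the share of all tested probe sets that passed.

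At an unadjusted p under 0.05 the members stood near the background. For KA in isolated rats 2 of 71 (2.82%) were under it, both higher, against 4.31% of all probe sets, and for KA in enriched rats 3 of 71 (4.23%), 2 higher and 1 lower, against 4.98%. For housing after PBS there were 4 of 71 (5.63%), 3 higher and 1 lower, against 4.21%, and for housing after KA 4 of 71, all lower, against 7.02%. The interaction gave 3 of 71 against 4.97%, the mean KA effect 4 of 71 against 4.31%, the mean housing effect 4 of 71 against 5.64%, and any difference among the groups 3 of 71 against 4.94%.

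The members' medians lay close to 0. On the scale log2(signal + 17), their median difference for KA in isolated rats was 0.0051, with 37 higher and 34 lower, and the median over all probe sets was -0.0053. In enriched rats the median KA difference was -0.015, with 31 higher and 40 lower. Housing gave a median of 0.0020 after PBS (36 higher, 35 lower) and -0.017 after KA (27 higher, 44 lower), beside 0.0026 and 0.0030 over all probe sets. When the arrays were quantile normalized the split for KA in isolated rats was 35 higher and 36 lower. When they were set to equal medians, the housing splits became 31 higher and 40 lower after PBS, and 22 higher and 49 lower after KA. That step shifts all probe sets of an array alike, and the medians over all probe sets were then -0.012 after PBS and -0.017 after KA.

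**Figure D1:**
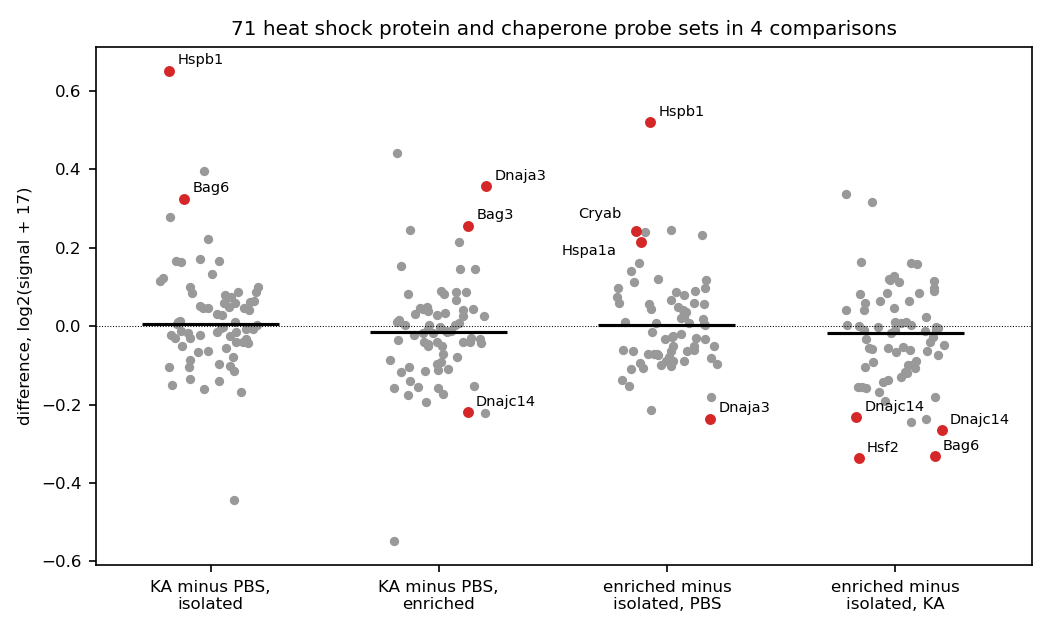
Log2 differences of the 71 tested member probe sets (points) in 4 comparisons, on the scale log2(signal + 17), with the median as a black bar and probe sets of unadjusted p under 0.05 in red with their gene. The medians lie between -0.017 and 0.0051, and Hspb1 is the highest point for KA in isolated rats and for housing after PBS.

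How small a difference these arrays could exclude was read from the 95% intervals of the fit. For KA in isolated rats the interval lay wholly within 0.5 on the log2 scale, a fold of 1.41 in signal + 17, for 65 of the 71 members (91.6%, beside 92.7% of all probe sets). The count was 64 for KA in enriched rats, 65 for housing after PBS and 62 for housing after KA. For the interaction, whose error is larger, it was 50 (70.4%, beside 69.9% of all). For the other members a difference of that size lay within the interval.

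Small heat shock proteins were read from few probe sets. Of 7 genes, Cryab, Hspb1 and Hspb6 passed the signal filter, while Hspb2, Hspb3, Hspb7 and Hspb8 lay below it, with mean signals of 1.91, 6.17, 42.7 and, for the brighter of its 2 probe sets, 45.6. Hspb1 (HSP27), which holds unfolded proteins and protects actin filaments, had signals of 34.3, 47.7 and 24.5 in PBS_isolated and 64.1, 60.7 and 67.8 for KA_isolated. In PBS_enriched they were 45.3, 68.1 and 59.6, and in KA_enriched 40.3, 54.7 and 62.6. All 3 KA_isolated pools were above all 3 PBS_isolated pools, and the enriched groups overlapped each other. With 3 against 3 pools the smallest two-sided exact p is 0.1, so groups that do not overlap are given as description only, here and below.

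For Hspb1 the KA difference in isolated rats was 0.65 on the log2 scale (SE 0.16, 95% interval 0.30 to 0.998, n = 3 pools per group), with a limma unadjusted p of 0.0013 and an adjusted p of 0.72. In enriched rats it was -0.10 (SE 0.16), and the interaction was -0.76 (SE 0.23, limma unadjusted p = 0.0054, adjusted p = 0.91). Enriched against isolated housing after PBS gave 0.52 (SE 0.16, limma unadjusted p = 0.0065, adjusted p = 0.998), although 1 enriched pool at 45.3 lay below the highest isolated pool at 47.7. The 3 comparisons share the PBS_isolated pools, which were the lowest group, so they are not independent of each other. Across the other settings tried, the KA difference in isolated rats ran from 0.438 to 0.854 and its adjusted p from 0.273 to 1. With signals this close to the added 17, the log2 scale understates the fold.

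Microglial and astrocyte markers moved with Hspb1 between the isolated groups. The 12 tested microglial and macrophage markers were all higher in KA_isolated than in PBS_isolated, by a median of 0.54, with 0 past the adjusted threshold, and the 6 tested markers of reactive astrocytes were all higher by a median of 0.26, also with 0 past it. The summed signal of 9 reactive astrocyte markers was 3143 to 3623 in PBS_isolated and 3745 to 4475 for KA_isolated, and it was 3101 to 3823 for PBS_enriched and 3205 to 3855 in KA_enriched. The 5 pools with the highest microglial list level (0.23 to 0.43, as a median of centred log2 values) were the 3 KA_isolated pools, PBS_enriched replicate 2 and KA_enriched replicate 3. The same 5 pools had the 5 highest Hspb1 signals, 60.7 to 68.1, and the other 7 pools were at 59.6 or below. Among those 7 the orders differed, since KA_enriched replicate 2 had the lowest microglial level (-0.352) with an Hspb1 signal of 54.7, and PBS_enriched replicate 3 was at -0.145 with 59.6. The part of these cell types in the Hspb1 values was not tested.

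Cryab (alpha B-crystallin), a small heat shock protein abundant in oligodendrocytes and astrocytes, was lowest in PBS_isolated, at 144, 143 and 141. It read 163, 162 and 151 for KA_isolated, 188, 173 and 158 for PBS_enriched, and 150.1, 190.2 and 174 in KA_enriched. All 9 other pools were above the 3 PBS_isolated pools. Housing after PBS gave 0.24 (SE 0.09, limma unadjusted p = 0.016, adjusted p = 0.998), KA in isolated rats 0.13 (SE 0.09) and the mean housing effect 0.17 (SE 0.06, limma unadjusted p = 0.017, adjusted p = 0.83).
Hspb6 (HSP20), a partner of actin in smooth muscle, ran from 78.6 to 111 in PBS_isolated, 80.3 to 123 for KA_isolated, 87.1 to 114 for PBS_enriched and 101 to 138 in KA_enriched, with every group overlapping the others. Its difference for housing after KA was 0.32 (SE 0.16, limma unadjusted p = 0.065), and 0.488 without KA_isolated replicate 3. The summed signal of 12 endothelial and mural markers was 1090 to 1309 over all pools. The 3 small heat shock proteins together had a median of 0.24 for housing after PBS, and all 3 were above 0 under each scaling tried. In the same comparison 4 of 5 oligodendrocyte markers were higher (median 0.12) and 11 of 12 microglial markers were higher (median 0.18), with 0 past the adjusted threshold in either list. Their part in the small heat shock protein values was not tested.

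**Figure D2:**
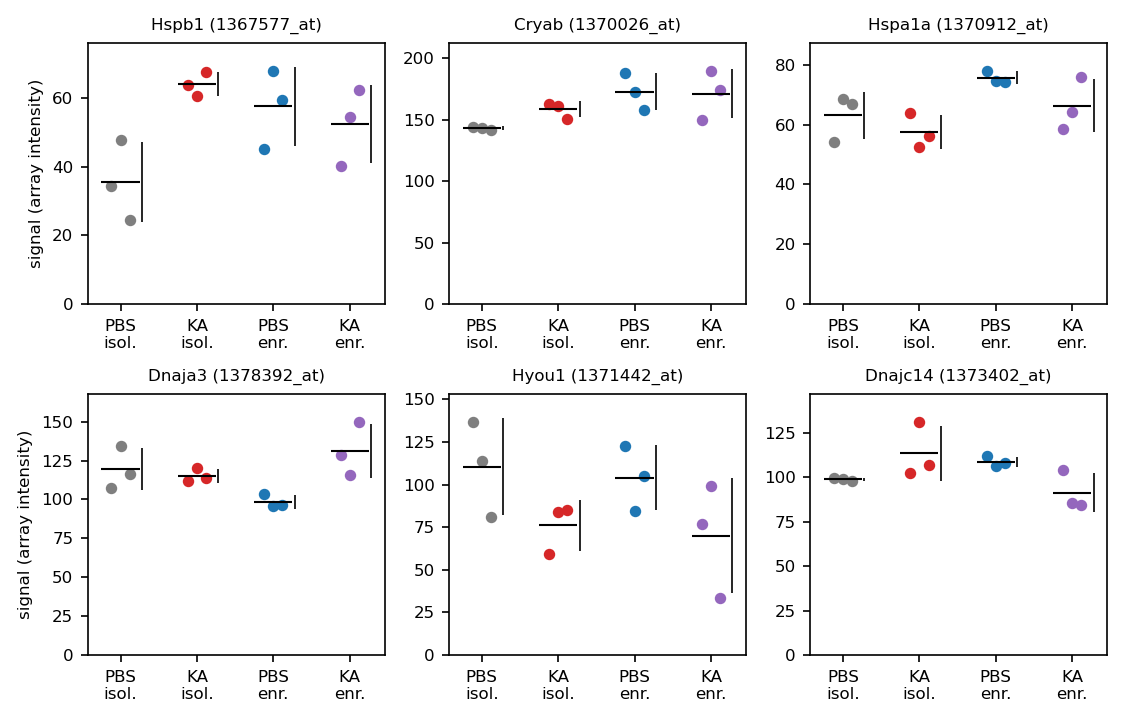
Signal (array intensity, linear axis from 0) of 6 member probe sets in each pool of the 4 groups, with the mean as a bar and the SD over 3 pools as a vertical line. Hspb1 shows PBS_isolated at 24.5 to 47.7 and KA_isolated at 60.7 to 67.8, and Cryab shows all other pools above PBS_isolated.

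The HSP70 and HSP110 group held 11 tested probe sets of 9 genes, and none passed. For KA in isolated rats 5 were higher and 6 lower (median -0.042), and in enriched rats 2 were higher and 9 lower (median -0.046), with the same splits under each scaling. Hspa1a, the inducible HSP70 that rises under heat, had signals of 54.1, 68.4 and 66.8 in PBS_isolated and 63.8, 52.5 and 56.3 for KA_isolated. It had 78.1, 74.6 and 74.2 for PBS_enriched and 58.6, 64.3 and 76.1 in KA_enriched. The 3 PBS_enriched pools were above every isolated pool. Each KA group overlapped its PBS group, although 2 of the 3 KA_enriched pools were below all PBS_enriched pools.
The KA difference of Hspa1a was -0.10 in isolated rats (SE 0.10, 95% interval -0.31 to 0.11) and -0.16 in enriched rats (SE 0.10, 95% interval -0.37 to 0.05). Housing after PBS gave 0.21 (SE 0.10, limma unadjusted p = 0.047, adjusted p = 0.998) and 0.131 without PBS_isolated replicate 1, and the mean housing effect 0.19 (SE 0.07, limma unadjusted p = 0.018, adjusted p = 0.83). Hspa1a and Hspa1b are near-identical copies, so the probe set may read both.

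Hspa5 (BiP), the HSP70 of the ER and a first target of the unfolded protein response, read 854, 922 and 858 in PBS_isolated, 879, 891 and 789.8 for KA_isolated, 955, 938 and 971 for PBS_enriched, and 875, 1032 and 873 in KA_enriched. The 3 PBS_enriched pools were above every isolated pool. The KA difference was -0.04 (SE 0.08) in isolated and -0.05 (SE 0.08) in enriched rats, and the mean housing effect was 0.12 (SE 0.06, limma unadjusted p = 0.067, adjusted p = 0.88). That value was 0.0775 without KA_enriched replicate 2. Hyou1, an ER chaperone of the HSP110 kind that helps Hspa5, was the member with the widest spread on its brighter probe set. It read 137, 114 and 80.7 in PBS_isolated, 59.0, 84.0 and 85.0 for KA_isolated, 122, 84.3 and 105 for PBS_enriched, and 77.1, 99.4 and 33.3 in KA_enriched.
The Hyou1 groups overlapped in both housings. Its mean KA effect was -0.50 (SE 0.18, limma unadjusted p = 0.018, adjusted p = 0.996), and it was -0.32 without KA_enriched replicate 3, which held the value of 33.3. The KA difference in enriched rats went from -0.55 (SE 0.26) to -0.196 without that pool. The second Hyou1 probe set, with signals of 42.8 to 60.3, gave -0.10 (SE 0.10) in isolated and -0.04 (SE 0.10) in enriched rats.

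Hspa9 (mortalin), the HSP70 of mitochondria, read 444, 412 and 473 in PBS_isolated, 429, 395 and 407 for KA_isolated, 410.1, 442 and 382 for PBS_enriched, and 417, 328 and 375 in KA_enriched on its brighter probe set. Its mean KA effect was -0.12 (SE 0.07), and it was -0.0792 without KA_enriched replicate 2. The second tested probe set gave -0.19 (SE 0.10, limma unadjusted p = 0.062) for KA in enriched rats, and -0.303 without KA_enriched replicate 1 or -0.123 without KA_enriched replicate 3. Hsph1 (HSP105), an exchange factor for HSP70 with the 3-unit heat shock element printed above, ran from 682 to 887 in PBS_isolated, 768 to 892 for KA_isolated, 724 to 771 for PBS_enriched and 781 to 891 in KA_enriched. Its KA difference was 0.10 (SE 0.10) in isolated and 0.15 (SE 0.10) in enriched rats, where the 3 KA pools were above the 3 PBS pools. Hspa4, another HSP110 protein, ran from 101 to 312 over all pools, with a coefficient of variation of 25.8%. Hspa12b and Hspa1l lay below the filter, with mean signals of 3.61 and 2.71.

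HSP90, which matures kinases and steroid receptors, was read from 3 probe sets of 2 genes. Hsp90ab1, the constitutive cytosolic form, ran from 2692 to 2812 in PBS_isolated, 2619 to 2835 for KA_isolated, 2430 to 2848 for PBS_enriched and 2560 to 3180 in KA_enriched. The second Hsp90ab1 probe set ran from 1756 to 2507 over all pools. KA_enriched replicate 3 had the highest value of the 12 pools on the first probe set (3180) and the lowest on the second (1756), so the 2 probe sets of this gene disagreed in that pool. The KA difference in enriched rats was 0.15 (SE 0.09) on the first and -0.03 (SE 0.11) on the second. Hsp90b1 (GRP94), the HSP90 of the ER, read 857, 848 and 789.6 in PBS_isolated and 885, 911 and 804 for KA_isolated, a difference of 0.06 (SE 0.08, 95% interval -0.11 to 0.23), and 0.0018 (SE 0.08) in enriched rats.

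The CCT chaperonin had the lowest median spread of the 10 roles. Cct4, a subunit of the cytosolic CCT ring that folds actin and tubulin, ran from 931 to 954 in PBS_isolated, 944 to 960 for KA_isolated, 906 to 959 for PBS_enriched and 925 to 952 in KA_enriched. Its coefficient of variation over the 12 pools was 1.84%, rank 1 from the bottom among the 9520 probe sets tested. The KA difference of Cct4 was 0.01 (SE 0.06, 95% interval -0.12 to 0.15) in isolated and 0.02 (SE 0.06) in enriched rats. The 8 CCT probe sets had a median coefficient of variation of 5.39%, with 4.61% for Cct2, 6.93% for Cct3, 3.23% for Cct5, 8.11% and 15.5% for the 2 Cct6a probe sets, 5.59% for Cct7 and 5.19% for Cct8.
In housing after KA all 8 CCT probe sets were on the lower side (median -0.059), none past the threshold, and 6 of 8 were lower after quantile normalization. For KA in isolated rats 7 of 8 were higher (median 0.038), 6 of 8 after quantile normalization. These comparisons share the KA_isolated pools. Of all probe sets tested, 51.1% were higher for housing after KA and 47.7% for KA in isolated rats. Cct7 had the smallest p of the CCT probe sets for housing, with 606, 599 and 570.1 in PBS_isolated, 611, 594 and 572 for KA_isolated, 556, 587 and 555 for PBS_enriched and 557, 494 and 555 in KA_enriched. Its mean housing effect was -0.10 (SE 0.05, limma unadjusted p = 0.065, adjusted p = 0.88). The dimmer Cct6a probe set gave 0.28 for KA in isolated rats, and 0.088 without PBS_isolated replicate 1, whose signal was 67.4 against 108 and 109 in the other 2 pools.

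Hspd1 (HSP60) and Hspe1 (HSP10) form the mitochondrial chaperonin and share the promoter printed above, yet their extremes fell in different pools. Hspd1 read 1119, 1212 and 1103 in PBS_isolated, 1135, 1157 and 1079 for KA_isolated, 1081, 1096 and 1135 for PBS_enriched, and 1152, 1397 and 1136 in KA_enriched, with the KA_enriched pools all above the PBS_enriched pools. Hspe1 read 878, 835 and 919 in PBS_isolated, 908, 854 and 1008 for KA_isolated, 845, 927 and 936 for PBS_enriched, and 825, 873 and 1011 in KA_enriched, and all groups overlapped. KA gave -0.03 (SE 0.09) for Hspd1 and 0.07 (SE 0.09) for Hspe1 in isolated rats, and 0.15 (SE 0.09) and -0.0031 (SE 0.09) in enriched rats.

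J proteins, which deliver clients to HSP70, fall into 3 classes, with 6 of 6 probe sets tested in class A, 8 of 12 in class B and 18 of 25 in class C. In class A, Dnaja3, the J protein of mitochondria, read 108, 134 and 116 in PBS_isolated, 112, 120.2 and 114 for KA_isolated, 104, 95.6 and 96.2 for PBS_enriched, and 128, 116 and 150.1 in KA_enriched. The PBS_enriched pools were below all 9 other pools. In enriched rats KA against PBS gave 0.36 (SE 0.10, 95% interval 0.15 to 0.56, limma unadjusted p = 0.0025, adjusted p = 0.84), and in isolated rats -0.04 (SE 0.10).
Enriched against isolated housing after PBS gave -0.24 for Dnaja3 (SE 0.10, limma unadjusted p = 0.028, adjusted p = 0.998), and the interaction was 0.40 (SE 0.13, limma unadjusted p = 0.011, adjusted p = 0.91). These comparisons share the PBS_enriched pools. Without KA_enriched replicate 3, which held 150.1, the KA difference in enriched rats was 0.267. Dnaja1, a cytosolic J protein with the 3-unit heat shock element, ran from 860 to 1024 over all pools on its brighter probe set, and KA gave 0.0051 (SE 0.07) in isolated and 0.03 (SE 0.07) in enriched rats. The brighter probe set of Dnaja4 had a coefficient of variation of 2.53% (rank 10 from the bottom of the 9520) and Dnaja2 of 3.44%, while the dimmer Dnaja4 probe set gave -0.16 for KA in isolated rats, and -0.0974 without KA_isolated replicate 1.

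In class B, Dnajb1 (HSP40), the heat-inducible partner of Hspa1a, read 227, 215 and 190.4 in PBS_isolated and 219, 209 and 227 for KA_isolated. It read 211, 199 and 226 for PBS_enriched and 197, 235 and 225 in KA_enriched, and the groups overlapped throughout. KA gave 0.05 (SE 0.09, 95% interval -0.14 to 0.24) in isolated and 0.04 (SE 0.09, 95% interval -0.14 to 0.23) in enriched rats. Dnajb2, a J protein of neurons, ran from 303 to 361 in PBS_isolated, 274 to 329.5 for KA_isolated, 305 to 329.6 for PBS_enriched and 311 to 339 in KA_enriched. Dnajb5 read 96.2, 102 and 186 in PBS_isolated, 124, 171 and 128 for KA_isolated, 126, 174 and 96.3 for PBS_enriched and 201, 177 and 166 in KA_enriched, a KA difference in enriched rats of 0.44 (SE 0.22, limma unadjusted p = 0.064). It was 0.259 without PBS_enriched replicate 3. Dnajb12 and Dnajb3 lay below the filter.

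In class C, which holds J proteins with specialised tasks, 13 of 18 tested probe sets were lower for KA in isolated rats (median -0.024) and 15 of 18 for the mean KA effect (median -0.031). After setting equal medians these were 11 and 14 of 18, and none passed. The 18 probe sets came from 14 genes. Over all probe sets tested, 47.7% were higher for KA in isolated rats and 47.9% for the mean KA effect. Dnajc6 (auxilin), which strips clathrin coats from synaptic vesicles, ran from 884 to 966 in PBS_isolated, 903 to 971 for KA_isolated, 893 to 1005 for PBS_enriched and 938 to 1011 in KA_enriched. The brighter probe set of Dnajc5 (cysteine string protein), a chaperone of synaptic vesicles, had a coefficient of variation of 2.75%, rank 14 from the bottom of the 9520. The dimmer Dnajc5 probe set was at 12.2%, rank 6620.
Dnajc13, which acts in endosomes, read 95.8, 109 and 106 in PBS_isolated and 95.4, 87.7 and 88.0 for KA_isolated, without overlap, a difference of -0.17 (SE 0.08, limma unadjusted p = 0.055, adjusted p = 0.999). Dnajc10, an ER J protein with disulphide reductase activity, gave -0.14 (SE 0.07) for the same comparison on its brighter probe set. That value was -0.2 without KA_isolated replicate 2 and -0.0943 without KA_isolated replicate 3. The dimmer Dnajc10 probe set had mean signals of 272.7 in PBS_isolated and 271.2 for KA_isolated. Dnajc27 gave 0.16 for housing after KA and 0.23 for the interaction, and these were 0.0701 and 0.141 without KA_enriched replicate 2. Dnajc17, Dnajc21, Dnajc22 and Dnajc3 lay below the filter, with mean signals of 23.6 for the brighter Dnajc17 probe set, 21.0, 10.8 and 43.8. Dnajc3 carries the ER stress element, so its signals of 49.2, 52.8 and 50.1 in PBS_isolated, 45.6, 39.8 and 49.3 for KA_isolated, 45.1, 41.4 and 43.2 for PBS_enriched and 30.5, 41.0 and 37.1 in KA_enriched are given without a test.

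Dnajc14, a J protein of the ER membrane, had 2 tested probe sets. They had opposite signs for KA in isolated rats and for housing after PBS, and the same sign in the other comparisons. The dimmer read 99.5, 99.4 and 98.0 in PBS_isolated, 102, 132 and 107 for KA_isolated, 112, 106 and 108 for PBS_enriched and 104, 85.6 and 84.7 in KA_enriched. KA pools were all above PBS pools in isolated rats and all below them in enriched rats. The interaction was -0.38 (SE 0.13, limma unadjusted p = 0.012, adjusted p = 0.92), with -0.22 (SE 0.09) for KA in enriched rats and -0.27 (SE 0.09) for housing after KA, the last of which was -0.169 without KA_isolated replicate 2. The brighter probe set read 151, 111 and 136 in PBS_isolated, 129, 125 and 132 for KA_isolated, 120.1, 127 and 104 for PBS_enriched and 118, 108 and 96.5 in KA_enriched. There both KA groups overlapped their PBS groups, and the KA_enriched pools were all below the KA_isolated pools. The mean housing effect of the brighter probe set was -0.19 (SE 0.07, limma unadjusted p = 0.022, adjusted p = 0.83).

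Among the cochaperones, 10 of 11 probe sets were tested and Hspbap1 lay below the filter. Stip1 (HOP), which joins HSP70 to HSP90, ran from 499.6 to 552 in PBS_isolated, 531 to 562 for KA_isolated, 572 to 575 for PBS_enriched and 526 to 584 in KA_enriched, with housing after PBS at 0.14 (SE 0.07, limma unadjusted p = 0.066). St13 (HIP), which steadies HSP70 on its client, gave -0.07 (SE 0.08) for KA in isolated and -0.0086 (SE 0.08) in enriched rats. Its dimmer probe set gave -0.18 (SE 0.12) for housing after PBS.
Bag3, an exchange factor that sends clients to autophagy and has a heat shock element in its promoter, read 90.7, 110.1 and 82.5 in PBS_isolated, 110.0, 105 and 94.5 for KA_isolated, 81.2, 95.4 and 84.3 for PBS_enriched and 104, 93.2 and 126 in KA_enriched. KA in enriched rats gave 0.26 (SE 0.11, limma unadjusted p = 0.040, adjusted p = 0.93) and 0.153 without KA_enriched replicate 3. Bag6, which guards membrane proteins in the cytosol, gave 0.32 (SE 0.15, limma unadjusted p = 0.0496, adjusted p = 0.999) for KA in isolated rats and -0.33 (SE 0.15) for housing after KA on its dimmer probe set, both of which share the KA_isolated pools. The first was 0.147 without PBS_isolated replicate 3. The interaction of its brighter probe set was -0.34 (SE 0.18), and it was -0.201 without KA_enriched replicate 2 and -0.219 without PBS_enriched replicate 1. Hspbp1, an exchange factor that slows HSP70, read 287, 282 and 267 in PBS_isolated and 210.3, 253 and 252 for PBS_enriched, without overlap, a difference of -0.21, and its mean housing effect was -0.19 (SE 0.08, limma unadjusted p = 0.040, adjusted p = 0.85). The first was -0.132 without PBS_enriched replicate 1 and the second -0.111 without KA_enriched replicate 2.

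The heat shock factors themselves did not differ past the threshold. Hsf1 read 82.9, 115 and 106 in PBS_isolated, 109, 102 and 97.4 for KA_isolated, 82.5, 74.2 and 118 for PBS_enriched and 111, 100.4 and 119 in KA_enriched, and all groups overlapped. KA gave 0.03 (SE 0.14) in isolated and 0.25 (SE 0.14) in enriched rats. Hsf2, a related factor, read 92.1, 88.4 and 103 in PBS_isolated, 104, 114 and 95.4 for KA_isolated, 83.5, 101 and 101 for PBS_enriched and 98.9, 86.3 and 56.6 in KA_enriched. Its housing difference after KA was -0.34 (SE 0.14, limma unadjusted p = 0.031, adjusted p = 0.67), and it was -0.146 without KA_enriched replicate 3, which held the 56.6.

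**Figure D3:**
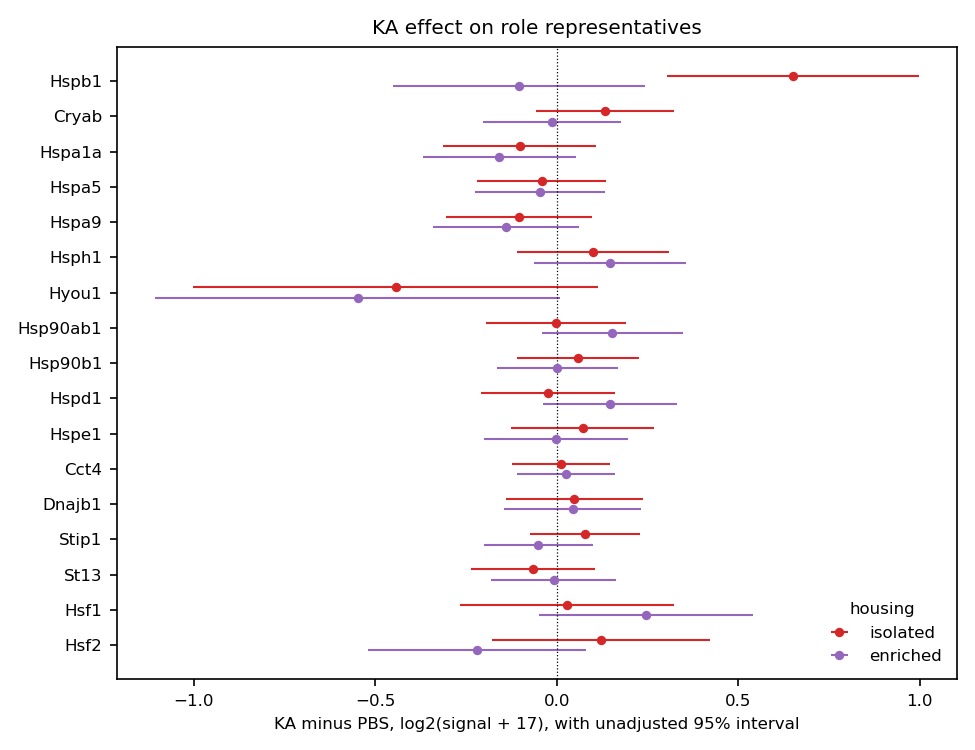
KA minus PBS on the log2(signal + 17) scale for 17 genes chosen to represent the roles, each on its brightest probe set, in isolated (red) and enriched (purple) rats, with unadjusted 95% intervals as bars. The interval of Hspb1 in isolated rats, 0.30 to 0.998, is the only one that leaves out 0 among these 17 genes. Of all 71 members, 2 in isolated and 3 in enriched rats had an unadjusted p under 0.05. Not plotted among these are Bag6 for KA in isolated rats, and Dnaja3, Bag3 and Dnajc14 for KA in enriched rats.

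The members were also read by promoter. Of the 16 genes with a heat shock element, 15 were tested, and for KA in isolated rats 10 were higher and 5 lower, with a median of 0.049, none past the threshold. In the 30 tested genes with a promoter and neither element the counts were 14 higher and 16 lower, with a median of -0.0055. For KA in enriched rats they were 9 higher and 6 lower (median 0.025), against 13 and 17 (median -0.026). The 5 genes with the 3-unit form had KA differences of -0.03 to 0.10 in isolated rats and -0.0031 to 0.15 in enriched rats.

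Partner genes outside the members gave the same count. The first list had 26 genes, mostly partners of HSP90 and the CCT ring (prefoldins, peptidyl-prolyl isomerases, HSP90 cochaperones). Tcp1, Trap1, Grpel1, Clpp, Lonp1 and Clu were also on it and fall outside these kinds. Of the 26, 24 were tested and 0 passed in any comparison. For KA in isolated rats 14 were higher and 10 lower, with Clu (clusterin, a secreted chaperone) at 0.24 (limma unadjusted p = 0.020, adjusted p = 0.999). Of 25 genes of ER folding and the unfolded protein response, 21 were tested and 0 passed. For KA in isolated rats 16 were higher and 5 lower (median 0.054), and in enriched rats 8 were higher and 13 lower (median -0.032). Sdf2l1, an ER partner of Hspa5, gave 0.41 for KA in isolated rats (limma unadjusted p = 0.017, adjusted p = 0.999) and 0.44 for housing after PBS, and Pdia3, a disulphide isomerase, gave -0.20 for KA in enriched rats.

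**Figure D4:**
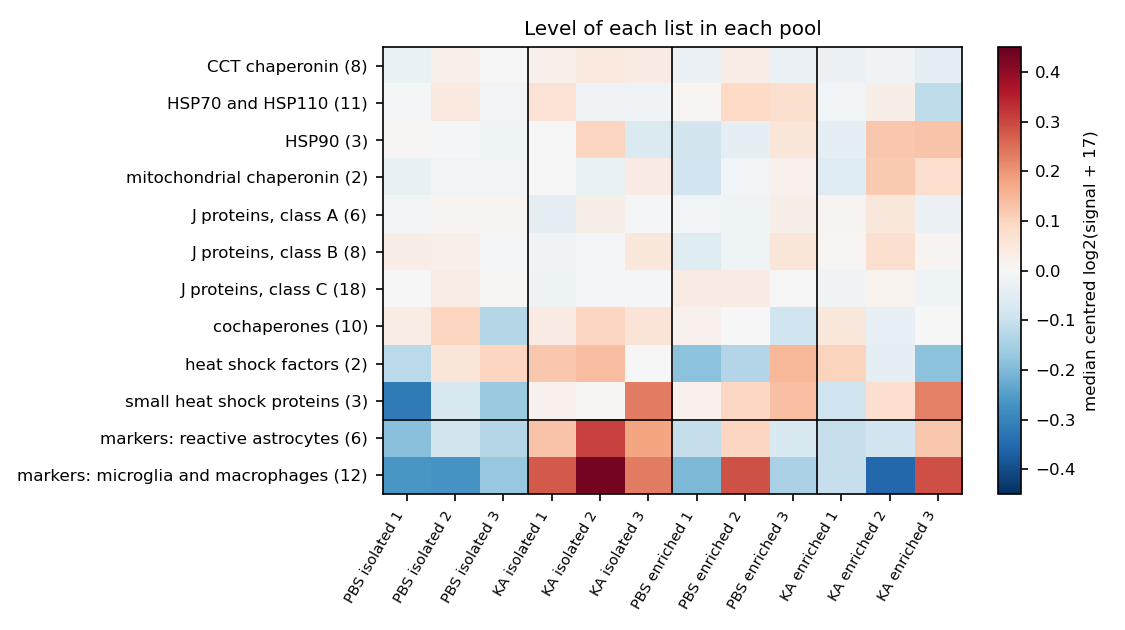
Level of each role list in each pool, as the median over its tested probe sets (number in brackets) of log2(signal + 17) centred on the mean of 12 pools, with 2 marker lists below the line. The small heat shock proteins run from -0.32 to 0.23, the CCT list stays between -0.044 and 0.044, and the microglial list is at 0.23 to 0.43 in 5 pools.

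The spread over all 12 pools was small for most members. The median coefficient of variation was 8.56% over the 71 members and 9.74% over all 9520 probe sets, beside a median log2 signal of 7.97 against 7.42. Of the 71, 13 (18.3%) lay in the steadiest decile of all tested probe sets and 8 (11.3%) in the most variable decile. By role the medians ran from 5.39% for CCT and 5.80% for class A J proteins to 15% for the heat shock factors and 18.6% for the small heat shock proteins. The widest single members were Hyou1 (31.2%), Hspb1 (26.8%), Hspa4 (25.8%) and Dnajb5 (25.7%).
Extremes gathered in KA_enriched replicate 3, which held the lowest value of 15 members (21.1%) and the highest of 11 (15.5%). Over all tested probe sets the shares in that pool were 16.7% and 16.7%. Replicate 2 of KA_enriched held the highest value of 11 members (15.5%) and the lowest of 6 (8.45%), against 12.6% and 13.8% of all tested probe sets. Where a gene had several tested probe sets (13 genes), they had the same sign in 11 for KA in isolated rats, where Dnajc14 and Hsp90ab1 disagreed, and in 8 for KA in enriched rats, 9 for housing after PBS, 8 for housing after KA and 7 for the interaction.

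**Figure D5:**
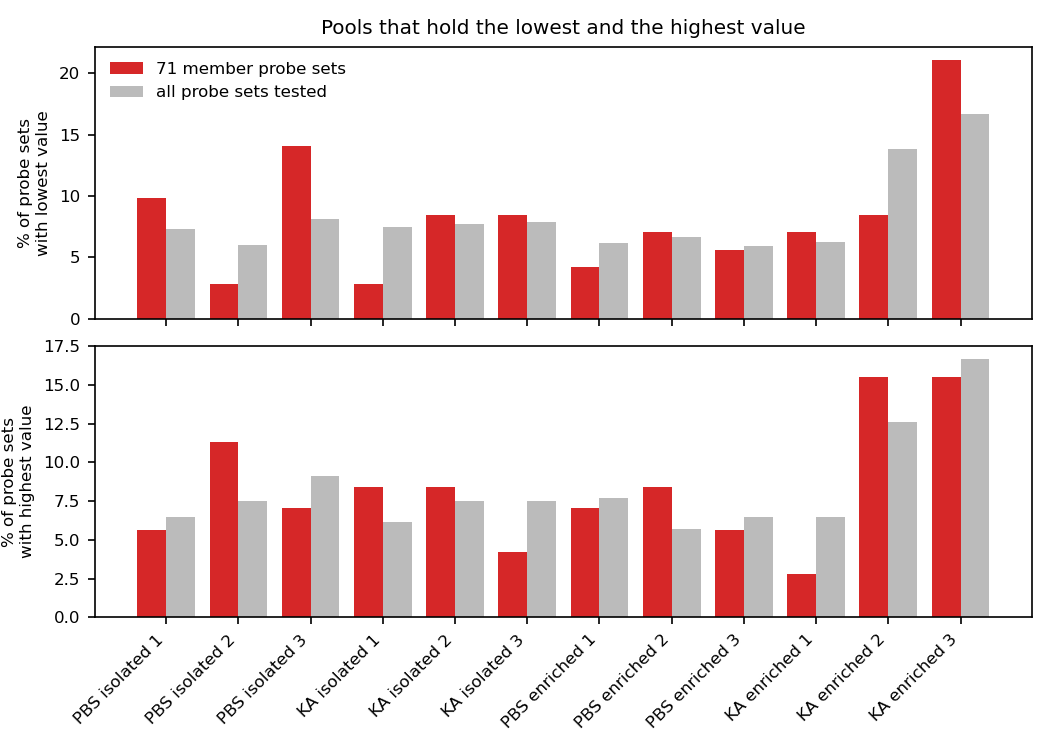
Share of probe sets whose lowest (top) or highest (bottom) value over 12 pools lay in each pool, for the 71 members (red) and all 9520 tested (grey). KA_enriched replicate 3 has the tallest bars of the lowest values, 21.1% and 16.7%.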

How the data were processed

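RNA from 12 pools (4 groups of 3) was measured on Affymetrix-type arrays with 1 array per pool. The authors deposited probe set signals (linear array intensity), and the method that summarised the probes is not stated in the labels. The values show that arrays share a mean of 150 after 2% is trimmed at each end, so the deposited intensity was used without further normalization. The 57 control probe sets stayed out. Signals were analysed as log2(signal + 17), where 17 is the 20th percentile, so differences of dim genes are understated. The 60% of probe sets with the highest mean (9520) were tested.

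Differences were fitted with limma 3.58.1 in R 4.3.3 (lmFit, eBayes) as 1 model of 4 group means over 12 pools with 13.1 degrees of freedom, 7 contrasts and an F test. P-values are two-sided, adjusted by Benjamini-Hochberg over all 9520, with a threshold of 0.05. The steps were tested on simulated data, where high recovery was required only for differences larger than any member difference given here. The number of arrays limits the precision. Groups come from each sample's treatment text and replicate numbers from the titles.

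Gene names come from the array annotation, where 12789 probe sets had 1 symbol and 312 had several. All member symbols matched the RefSeq gene table by Entrez ID. The members, the lists of partner and marker genes and the roles were chosen with earlier results of these data known. Genes were named by rule: in each contrast the 3 higher and 3 lower members of smallest unadjusted p, the gene of highest mean signal in each role, and role representatives. The probe set with the highest mean stands for a gene. Other members named are there for their spread, their promoter, their groups not overlapping or the filter, and were picked with values known. Alternatives covered the added constant, the filter, the scaling, array weights, the samples in the fit, the replicate block, 1 probe set per gene and leaving out pools.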

Additional observations from a re-analysis of the deposited data

Results flagged for a closer look

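The dimmer probe set of Dnajc14 stood out because the KA pools were all above the PBS pools in isolated rats and all below them in enriched rats. The difference of the 2 KA effects was -0.383 on the log2 scale (SE 0.13), with a limma unadjusted p of 0.012 and an adjusted p of 0.92. The flag was set by these same values, so the unadjusted p adds no support to it. How many of all tested probe sets met the same rule was not counted. The other Dnajc14 probe set did not separate the groups in this way. Which of the 2 reads the gene more truly was not tested.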

How the results depend on the processing

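In 23 other settings 0 of the members passed in any of the comparisons, and the lowest adjusted p of a member was 0.273 (Hspb1, KA in isolated rats). All 921 re-estimates of the 42 named values kept their direction and stayed short of the threshold. These values were picked for their small unadjusted p in the same pools, so a kept direction was likely beforehand. The members' median log2 difference moved by over 0.0161, the spread between pools, in these cases. Apart from the common shift under equal medians, given below, the cause was not tested. For housing after PBS it was -0.017 with the top 40% of probe sets kept and -0.019 with array weights. With equal medians, which shift all probe sets of an array alike, it was -0.0365 for housing after KA and -0.0277 for mean housing. The medians over all probe sets were then -0.0167 and -0.0152. With 1 probe set per gene the members' median for the interaction was -0.00457. Without PBS_enriched replicate 2 and KA_enriched replicate 3, both high in microglial genes, it was 0.00626 for KA in enriched rats, -0.017 and -0.000209 for housing after PBS and after KA, and 0.00937 for the interaction. Leaving out each pool in turn, it ran from -0.00116 to 0.0263 for KA in isolated rats, -0.017 to 0.0061 for housing after PBS, -0.0338 to -0.000209 for housing after KA and -0.0397 to -0.00648 for the interaction. With the replicate number as a block, 0 members passed and the median for KA in isolated rats was 0.00509. After the group means were taken off, pools with the same number correlated at -0.072 to 0.20 (median 0.056, 2 of 18 pairs over 0.1). Pools with different numbers correlated at -0.14 to 0.10 (median -0.015, 1 of 36 pairs over 0.1). The labels do not say what a number marks, so the numbers were not taken as pairs. Signals near the added 17, as for Hspb1, limit what dim genes can show.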
